A study of Homo sapiens with 6 samples.

Results

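YAP1 and WWTR1, the genes of the transcriptional coactivators YAP and TAZ, were examined together with the 4 TEAD factor genes TEAD1, TEAD2, TEAD3 and TEAD4 and with 4 target genes of these proteins, CCN1, CCN2, AMOTL2 and ANKRD1. The 10 genes were chosen by name from a table of 20668 genes, in which each stood once, and all 10 were among the 16403 genes abundant enough to be tested. The libraries came from SH-SY5Y, an established human neuroblastoma line that carries features of immature sympathetic neurons. One group was 3 RNA-seq libraries from SH-SY5Y cells whose DNAJC12 gene had been knocked out with CRISPR/Cas9, and the other was 3 libraries from wild-type SH-SY5Y cells (WT); the labels give no treatment for either group. The series names cell invasion as the property for which DNAJC12, which encodes a co-chaperone of the HSP70 system, was studied. The labels give neither the position of the guide RNA nor the number of knockout clones. Whether the 3 libraries of a genotype were separate cultures is not stated either, and the p-values therefore reflect only how far these libraries differ, which may be technical variation.

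In the Hippo pathway, the kinases STK3 and STK4 activate the kinases LATS1 and LATS2, which phosphorylate YAP and TAZ and thereby hold them in the cytoplasm or mark them for degradation. Unphosphorylated YAP and TAZ enter the nucleus, where they bind TEAD factors, which provide the contact with DNA at sites of the GGAATG type. CCN1, CCN2, ANKRD1 and AMOTL2 are widely used as readouts of this activity in epithelial and mesenchymal cells, and in neuroblastoma YAP1 is known mainly from cells of the mesenchymal kind. RNA libraries measure neither the phosphorylation nor the location of these proteins.

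DNAJC12 itself was measured first. It had 5.91, 5.87 and 4.85 CPM in the knockout libraries, against 23.0, 21.4 and 20.0 CPM in the WT libraries, where CPM are counts relative to library size after scaling by TMM (trimmed mean of M values). Every knockout library lay below every WT library, and the log2 fold change was -1.95 ± 0.13 (SE, n = 3 each; edgeR adjusted p = 1.25e-06). Library totals were 19845788 to 21869659 counts in the knockout and 19321842 to 20071795 counts in WT, and correlations of log CPM between libraries of a genotype were 0.979 to 0.985. The threshold for an adjusted p was 0.05, which 26.0% of the genes tested passed, 2383 of them higher in the knockout and 1887 of them lower. The lower count was 1208 without knockout replicate 3.

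The promoters of 4 of the genes are shown because they hold the TEAD core motif. Each line gives the 250 bases before the transcription start from RefSeq (GRCh38.p14), on the strand of the gene, with GGAATG and its reverse complement CATTCC in capitals.
CCN2 (chr6:131951373-131951622, minus strand): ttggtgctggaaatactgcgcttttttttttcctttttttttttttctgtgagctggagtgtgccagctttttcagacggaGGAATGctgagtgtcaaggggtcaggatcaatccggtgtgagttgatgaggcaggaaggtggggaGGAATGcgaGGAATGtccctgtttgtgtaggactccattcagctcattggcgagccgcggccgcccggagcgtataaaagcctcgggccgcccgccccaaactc
ANKRD1 (chr10:90921088-90921337, minus strand): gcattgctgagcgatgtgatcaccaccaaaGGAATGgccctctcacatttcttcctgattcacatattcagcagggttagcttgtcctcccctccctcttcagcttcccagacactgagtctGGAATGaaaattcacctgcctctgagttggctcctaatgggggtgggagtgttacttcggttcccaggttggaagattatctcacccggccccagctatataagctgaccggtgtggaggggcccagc
AMOTL2, downstream start (chr3:134374448-134374697, minus strand): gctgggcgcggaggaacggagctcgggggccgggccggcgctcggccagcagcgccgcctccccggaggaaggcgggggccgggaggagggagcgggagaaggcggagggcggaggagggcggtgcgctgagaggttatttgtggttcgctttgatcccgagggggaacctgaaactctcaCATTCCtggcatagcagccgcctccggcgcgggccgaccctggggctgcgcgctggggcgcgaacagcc
YAP1 (chr11:102110197-102110446, plus strand): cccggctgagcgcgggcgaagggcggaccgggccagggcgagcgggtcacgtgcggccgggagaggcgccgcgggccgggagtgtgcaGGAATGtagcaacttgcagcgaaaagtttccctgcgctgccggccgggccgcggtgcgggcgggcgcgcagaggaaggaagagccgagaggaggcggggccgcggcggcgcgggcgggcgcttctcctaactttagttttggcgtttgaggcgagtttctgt
The window of CCN2 held 3 matches, which began 169, 104 and 95 bases before the start. That of ANKRD1 held 2 matches, which began 220 and 128 bases before the start. AMOTL2 held 1 match on the opposite strand 69 bases before its downstream start and 0 matches before its upstream start, and YAP1 held 1 match 162 bases before its start. Among 35116 RefSeq windows of the same length, 11.9% held at least 1 match, 0.940% at least 2 and 0.0826% at least 3. WWTR1 and TEAD2, each with a pair of RefSeq starts, and TEAD3 held 0 matches in these windows. The CArG box, the core site of serum response factor, was searched on both strands as well and had 0 matches in the windows of the 7 genes with an entry, against 1.16% of all windows. TEAD1, TEAD4 and CCN1 had no entry. A match of letters is a description and not a site of binding, and binding was not measured in these libraries.

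**Figure D1:**
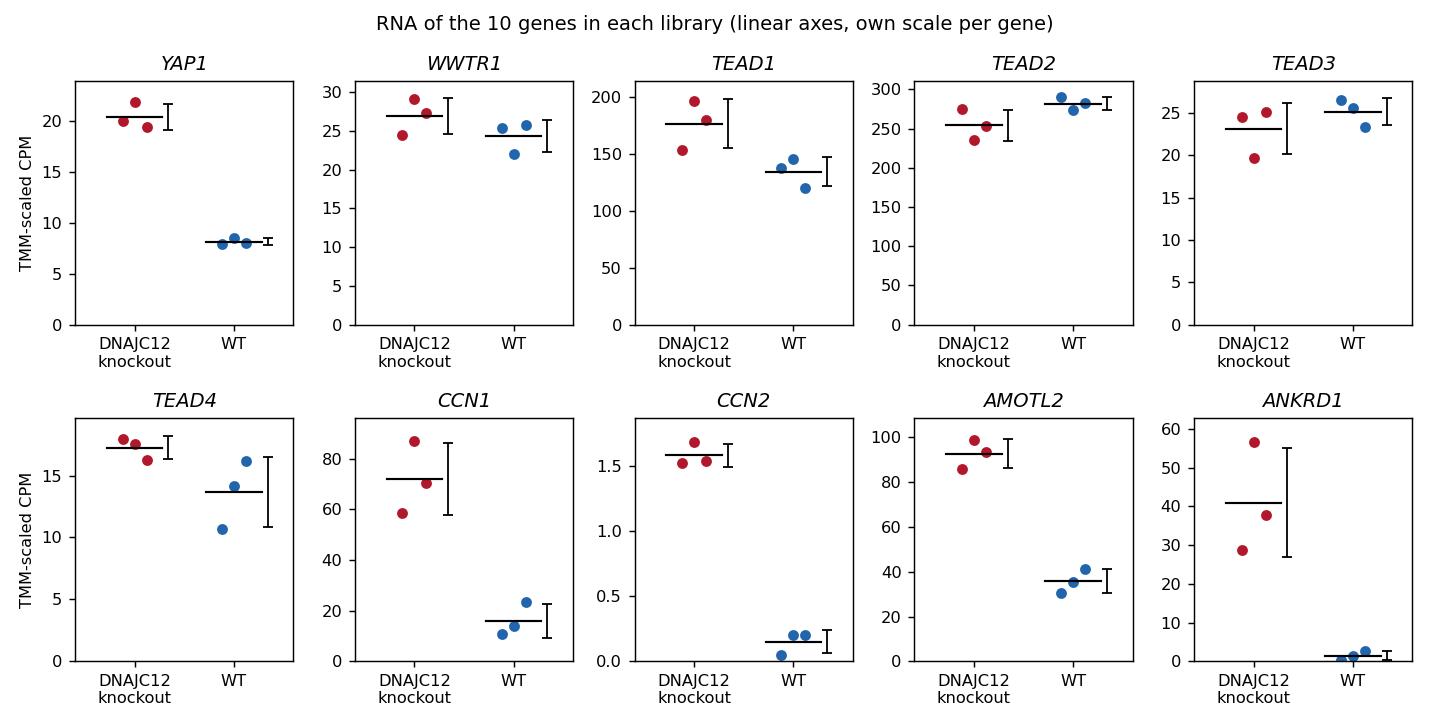
TMM-scaled CPM of the 10 genes in each library, with DNAJC12 knockout in red, WT in blue, the group mean as a bar and the SD beside it (n = 3 each); every axis starts at 0 and has its own scale. The groups lie far apart for YAP1, CCN1, CCN2, AMOTL2 and ANKRD1, more narrowly apart for TEAD1 and TEAD4, and overlap for WWTR1, TEAD2 and TEAD3.

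Of the coactivator genes, YAP1 was higher in the knockout and WWTR1 did not pass the test. YAP1 (ENSG00000137693, chr11:102110447-102233424, plus strand) had 20.0, 21.9 and 19.4 CPM in the knockout libraries, against 7.94, 8.53 and 7.98 CPM in the WT libraries. All 3 knockout libraries lay above all 3 WT libraries, with little spread in either group. The means were 20.4 ± 1.29 CPM in the knockout and 8.15 ± 0.328 CPM in WT (SD, n = 3 each), and the log2 fold change was 1.32 ± 0.11 (SE; edgeR adjusted p = 7.95e-06), or 2.50-fold. Summed over libraries, 1262 YAP1 counts in the knockout stood against 488 in WT, a depth-adjusted ratio of 2.51 with an exact 95% interval for counting error of 2.26 to 2.79. WWTR1 (ENSG00000018408, chr3:149517235-149724788, minus strand), the gene of the YAP paralog TAZ, had 24.4, 29.04 and 27.3 CPM in the knockout libraries, against 25.3, 21.98 and 25.7 CPM in the WT libraries. These groups overlapped, and the log2 fold change of 0.15 ± 0.11 did not pass (edgeR adjusted p = 0.364).

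The TEAD genes moved little in comparison, and TEAD1 alone among them passed the test. TEAD1 (ENSG00000187079, chr11:12674421-12944737, plus strand) had 153, 196 and 180 CPM in the knockout libraries, against 137, 145 and 120 CPM in the WT libraries. The groups did not overlap, although the lowest knockout library and the highest WT library lay close. Its log2 fold change was 0.39 ± 0.10 (SE, n = 3 each; edgeR adjusted p = 0.0143). Without WT replicate 3 the change was 0.32 with an adjusted p of 0.0722, and without knockout replicate 3 it was 0.38 with an adjusted p of 0.0600, so the call rests on these libraries. TEAD4 (ENSG00000197905, chr12:2959397-3040676, plus strand) had 18.0, 17.6 and 16.2 CPM in the knockout libraries, against 10.7, 14.2 and 16.2 CPM in the WT libraries. The lowest knockout and the highest WT value were separated only beyond the printed digits, and the log2 fold change of 0.34 ± 0.15 did not pass (edgeR adjusted p = 0.127).

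TEAD2 (ENSG00000074219, chr19:49340595-49362416, minus strand), the TEAD gene best known from neural and embryonic cells, had 275, 235 and 253 CPM in the knockout libraries, against 290, 273 and 282 CPM in the WT libraries. The groups overlapped at knockout replicate 1 and WT replicate 2. The log2 fold change was -0.15 ± 0.07 (edgeR adjusted p = 0.152), and without knockout replicate 1 it was -0.21 with an adjusted p of 0.0345. TEAD3 (ENSG00000007866, chr6:35473597-35497079, minus strand) had 24.6, 19.7 and 25.2 CPM in the knockout libraries, against 26.5, 25.6 and 23.4 CPM in the WT libraries. These values overlapped, with a log2 fold change of -0.12 ± 0.12 (edgeR adjusted p = 0.504).

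All 4 target genes were higher in the knockout, and the log2 fold changes of CCN1, CCN2 and ANKRD1 were larger than that of YAP1; differences between genes were not tested. ANKRD1 (ENSG00000148677, chr10:90912096-90921087, minus strand) encodes an ankyrin repeat protein best known from heart muscle. It had 28.8, 56.5 and 37.6 CPM in the knockout libraries, against 0.387, 1.421 and 2.76 CPM in the WT libraries. The lowest knockout library exceeded the highest WT library by a wide margin, while the libraries of each genotype also differed among themselves. The log2 fold change was 4.76 ± 0.42 (SE, n = 3 each; edgeR adjusted p = 1.22e-05), or 27.1-fold, and the exact 95% interval of the depth-adjusted count ratio was 22.2 to 34.2. The size depends on WT replicate 3, without which the log2 fold change was 5.51 (edgeR adjusted p = 0.000111).

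CCN2 (ENSG00000118523, chr6:131948176-131951372, minus strand), formerly CTGF, encodes a secreted matricellular protein and was the least abundant of the 10 genes. It had 30, 35 and 33 counts in the knockout libraries, against 1, 4 and 4 counts in the WT libraries. In CPM this was 1.53, 1.69 and 1.54 in the knockout and 0.0484, 0.203 and 0.205 in WT, where 1 count was worth 0.0457 to 0.0518 CPM. The knockout libraries were alike and far above WT, in which the gene was near the limit of detection. The log2 fold change was 3.34 ± 0.49 (SE, n = 3 each; edgeR adjusted p = 0.000472). With 98 counts in the knockout and 9 in WT, the depth-adjusted ratio was 10.5 and its exact 95% interval ran from 5.34 to 23.8, so the size is known only roughly.

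CCN1 (ENSG00000142871, chr1:85580761-85583950, plus strand), formerly CYR61, is the matricellular paralog of CCN2. It had 58.5, 86.9 and 70.2 CPM in the knockout libraries, against 10.7, 14.1 and 23.6 CPM in the WT libraries. All knockout libraries lay above all WT libraries, with means of 71.9 ± 14.3 CPM in the knockout and 16.1 ± 6.69 CPM in WT (SD, n = 3 each). The log2 fold change was 2.16 ± 0.24 (SE; edgeR adjusted p = 8.19e-05), or 4.47-fold.

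AMOTL2 (ENSG00000114019, chr3:134355345-134375417, minus strand) encodes an angiomotin-family scaffold that binds YAP and restrains it, so that it is at once a target and an inhibitor. It had 86.0, 98.8 and 93.5 CPM in the knockout libraries, against 30.6, 35.3 and 41.3 CPM in the WT libraries. The groups were well separated, with means of 92.7 ± 6.41 CPM in the knockout and 35.7 ± 5.37 CPM in WT (SD, n = 3 each). The log2 fold change was 1.38 ± 0.11 (SE; edgeR adjusted p = 6.19e-06), or 2.60-fold, close in size to that of YAP1.

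**Figure D2:**
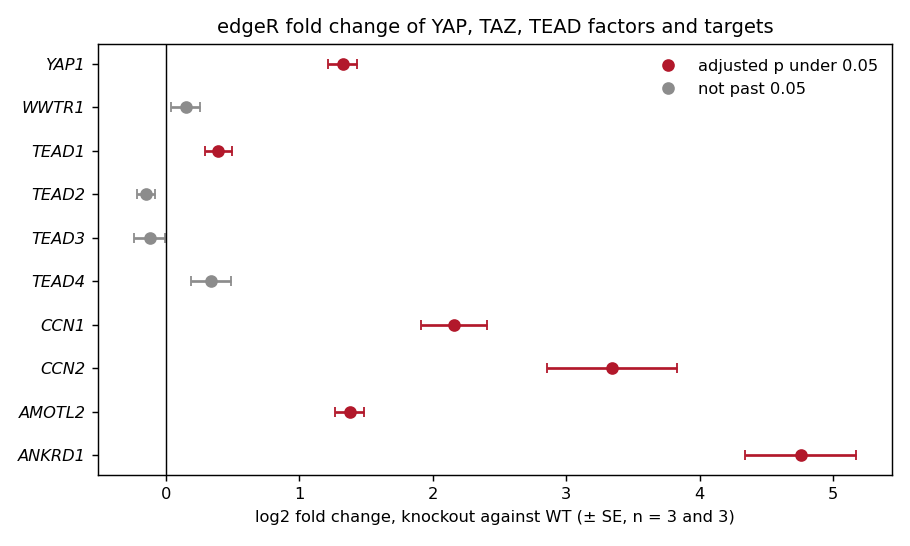
Log2 fold change of each gene in DNAJC12 knockout against WT from edgeR, with bars of 1 SE (n = 3 each) and red for an adjusted p under 0.05 over all genes tested. Values run from -0.15 for TEAD2 to 4.76 for ANKRD1, and the 6 genes in red all lie to the right of 0.

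Counted together, 6 of the 10 genes were higher in the knockout, 0 were lower and 4 did not pass, while 14.5% of all genes tested were higher and 11.5% lower. At an unadjusted p under 0.05 from edgeR, 7 of the 10 were higher and 0 lower, the addition being TEAD4, and DESeq2 and limma-voom also called 0 lower. The knockout values lay wholly above the WT values for 7 of the 10 genes, against 21.7% of all genes tested, and wholly below them for 0 of the 10, against 20.1%. The median log2 fold change was 0.86 over the 10 genes and 0.00 over all genes tested. YAP1, CCN1, CCN2, AMOTL2 and ANKRD1 were each called and at least 2-fold higher, which held for 6.36% of all genes tested. Each of these 5 genes passed the threshold in all 16 settings tried, with log2 fold changes of 1.27 to 1.36 for YAP1, 1.27 to 1.49 for AMOTL2, 1.93 to 2.54 for CCN1, 2.92 to 3.60 for CCN2 and 4.29 to 5.51 for ANKRD1. The genes around the 6 higher genes were described as well. Over the 20 tested genes nearest to each, 10 on either side, the median log2 fold change was -0.01 beside YAP1, 0.14 beside TEAD1, 0.06 beside CCN1, 0.06 beside CCN2, 0.15 beside AMOTL2 and 0.01 beside ANKRD1. Of each 20, the genes called higher and lower were 2 and 2 beside YAP1, 5 and 2 beside TEAD1, 5 and 1 beside CCN1, 3 and 2 beside CCN2, 4 and 1 beside AMOTL2, and 3 and 1 beside ANKRD1.

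The libraries of a genotype varied in a shared way for several of the 10 genes, targets and others. Knockout replicate 2 was the highest knockout library and knockout replicate 1 the lowest for CCN1, AMOTL2, ANKRD1, TEAD1 and WWTR1. CCN2 had the same order, but at 30, 35 and 33 counts its knockout libraries were too alike to rank. Among the WT libraries, replicate 3 was the highest and replicate 1 the lowest for CCN1, AMOTL2, ANKRD1 and TEAD4. YAP1 did not follow this among WT libraries, where replicate 2 was the highest. Over all genes tested, knockout replicates 1 and 2 were also the knockout pair that differed most, at a chi-square per gene of 22.6. WT replicates 1 and 3 were the WT pair that differed most, at 9.25. The shared order is therefore not particular to these genes. Measured as the root mean square difference of gene-centred log2 CPM over the 6 libraries, the closest pairs among the 10 genes were TEAD2 with TEAD3 (0.0925) and YAP1 with AMOTL2 (0.141). CCN1 and CCN2 were 0.402 apart, and ANKRD1 lay farther from each of the other genes, at 1.17 from CCN2, its nearest. These profiles combine the difference between genotypes with that between libraries.

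Levels of different genes were compared per transcript length, in TPM (transcript abundance relative to length and library), summed over the transcripts of a gene. TEAD2 stood far above the other genes in both genotypes, with 177 ± 15.9 TPM in the knockout and 203 ± 4.29 TPM in WT (SD, n = 3 each). In the knockout it was followed by CCN1 with 40.1 ± 12.1 TPM, AMOTL2 with 35.9 ± 3.22 TPM, ANKRD1 with 32.9 ± 11.5 TPM and TEAD1 with 32.6 ± 3.18 TPM. Neighbours among these 4 overlapped in their libraries. Below them came TEAD4 with 15.5 ± 1.21 TPM, TEAD3 with 11.02 ± 0.893 TPM, WWTR1 with 8.28 ± 1.195 TPM, YAP1 with 7.13 ± 0.921 TPM and CCN2 with 0.998 ± 0.0661 TPM, of which only WWTR1 and YAP1 overlapped.

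The order in WT differed mainly in the places of the targets. TEAD1 was second in WT with 24.8 ± 2.41 TPM, apart from AMOTL2 with 15.3 ± 1.71 TPM. AMOTL2, TEAD4 (12.6 ± 2.04 TPM), TEAD3 (12.01 ± 0.872 TPM), CCN1 (9.04 ± 3.92 TPM) and WWTR1 (7.92 ± 0.968 TPM) then formed a run in which each overlapped the next. YAP1 with 2.97 ± 0.644 TPM, ANKRD1 with 1.27 ± 0.968 TPM and CCN2 with 0.100 ± 0.0587 TPM were each apart from their neighbours. ANKRD1 was thus below both coactivator genes in WT and above both in the knockout. The TPM of CCN1 is a lower estimate, since 70.3% to 93.9% of its gene count fell on transcripts that GENCODE release 29 assigns to it.

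**Figure D3:**
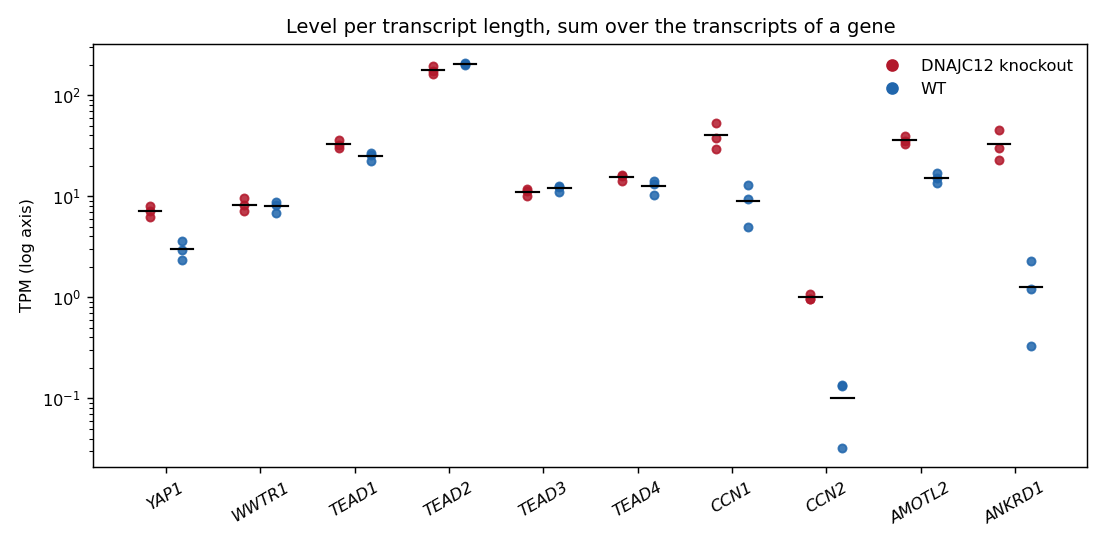
TPM of the 10 genes on a log axis, 1 point per library with DNAJC12 knockout in red left of WT in blue and the group mean as a bar (n = 3 each). TEAD2 is the highest gene in both genotypes and CCN2 the lowest, and ANKRD1 has the widest gap between genotypes.

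The makeup of the TEAD pool and of the coactivator pool was described from the same TPM values, without a test. TEAD2 made up 77.1%, 72.4% and 74.9% of the TEAD TPM in the knockout libraries, against 80.9%, 79.7% and 80.8% in the WT libraries. TEAD1 made up 11.9%, 16.1% and 13.9% in the knockout libraries, against 10.1%, 10.3% and 8.97% in the WT libraries. Both shares were apart between the genotypes, with TEAD2 lower and TEAD1 higher in the knockout. TEAD4 held 6.57 ± 0.500% in the knockout and 4.98 ± 0.888% in WT, and TEAD3 4.68 ± 0.371% in the knockout and 4.75 ± 0.242% in WT (SD, n = 3 each). The summed TEAD TPM was 236 ± 13.9 in the knockout and 253 ± 5.96 in WT, so the pool was dominated by TEAD2 in both. Counted over 1 transcript per gene, the one with the highest mean TPM over all 6 libraries, TEAD2 held 64.7% in the knockout and 70.7% in WT.

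YAP1 made up 50.0%, 45.7% and 43.3% of the TPM of YAP1 plus WWTR1 in the knockout libraries, against 25.0%, 34.8% and 22.4% in the WT libraries. The groups did not overlap. The share depends on which forms are counted. Over YAP1-201 and WWTR1-201, the form of each gene with the highest mean TPM over all 6 libraries, it was 16.3% in the knockout and 14.8% in WT. In the knockout, however, YAP1-201 averaged 1.62 TPM, below YAP1-208 with 2.32 TPM and YAP1-209 with 2.10 TPM, so these shares follow the form picked. The TEAD TPM exceeded that of YAP1 plus WWTR1 in every library, 17.5, 12.8 and 16.1 times in the knockout libraries and 22.005, 24.5 and 23.3 times in the WT libraries.

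At the level of transcripts, the higher AMOTL2 in the knockout was seen in several forms. Most of its TPM came from forms that begin near the downstream start, whose promoter is printed above. Transcripts that begin within 300 bases of that start, at position 134374447 of chromosome 3, summed to 27.6, 33.4 and 31.2 TPM in the knockout libraries, against 12.5, 13.3 and 15.3 TPM in the WT libraries. Those near the upstream start, at position 134375417, were listed at 0 in all 6 libraries. Transcripts that begin elsewhere summed to 5.35, 5.87 and 4.12 TPM in the knockout libraries, against 1.05, 1.86 and 1.67 TPM in the WT libraries. The main coding form, AMOTL2-202, had 16.99, 17.4 and 18.8 TPM in the knockout libraries, against 6.55, 5.34 and 7.58 TPM in the WT libraries. The intron-retaining form AMOTL2-207, which begins elsewhere, was also apart. It had 4.27 ± 1.04 TPM in the knockout and 1.53 ± 0.421 TPM in WT (SD, n = 3 each).

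For TEAD1, the second most abundant form rather than the first separated the genotypes. TEAD1-203 had 8.01, 10.4 and 9.496 TPM in the knockout libraries, against 6.75, 5.36 and 4.76 TPM in the WT libraries. The most abundant form, TEAD1-206, had 13.5, 17.5 and 15.8 TPM in the knockout libraries, against 13.7, 16.0 and 13.0 TPM in the WT libraries, and overlapped. TEAD2-201, the leading TEAD2 form, had 64.8, 61.5 and 72.8 TPM in the knockout libraries, against 87.3, 94.5 and 77.3 TPM in the WT libraries. Here the groups were apart with lower values in the knockout, whereas the TEAD2 gene did not pass the test.

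YAP1 reads were spread over several similar forms, and no single form was the highest in every library. YAP1-201, for example, had 0.441, 2.32 and 2.11 TPM in the knockout libraries, against 1.99, 0.453 and 1.61 TPM in the WT libraries. WWTR1-201 carried most of WWTR1, with 7.77 ± 0.592 TPM in the knockout and 7.37 ± 0.488 TPM in WT (SD, n = 3 each). ANKRD1 and CCN2 each have 1 transcript in GENCODE release 29. Division of reads among overlapping transcripts is an estimate, and no transcript was tested.

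**Figure D4:**
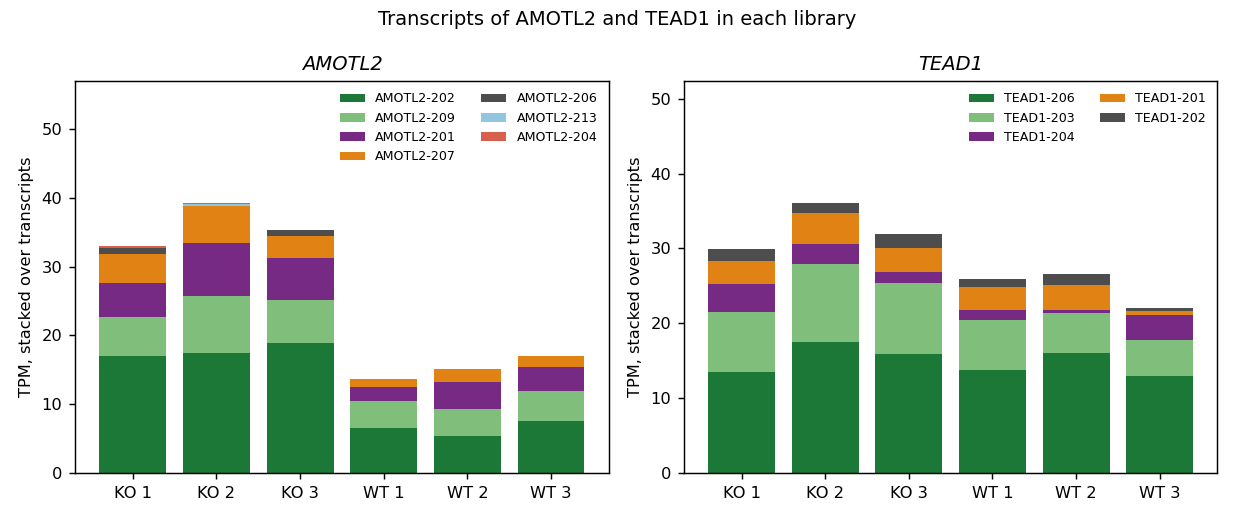
TPM of the transcripts of AMOTL2 and TEAD1, stacked for each library with the 3 DNAJC12 knockout (KO) libraries left of the 3 WT libraries and both axes from 0. AMOTL2-202 reaches 16.99 to 18.8 TPM in the knockout libraries and 5.34 to 7.58 TPM in the WT libraries, while TEAD1-206 is of similar height in both genotypes.

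Other genes that a YAP target signature from other cell types contains were mostly higher in the knockout as well, but not in 1 direction only. Of 18 such genes 17 were tested, of which 12 were higher, 3 were lower and 2 did not pass, with a median log2 fold change of 0.86. Without WT replicate 1, 2 or 3, without knockout replicate 3, or at a threshold of 0.01, 8 were called higher and 3 lower. Of all genes tested, 14.5% were higher and 11.5% lower. TGFB2, a TGF-beta ligand, had 51.3, 71.7 and 60.2 CPM in the knockout libraries, against 1.89, 2.03 and 2.05 CPM in the WT libraries (log2 fold change 4.94 ± 0.16, edgeR adjusted p = 1.25e-08). IGFBP3, which binds insulin-like growth factors, had 266, 232 and 261 CPM in the knockout libraries, against 7.50, 8.93 and 11.2 CPM in the WT libraries (4.78 ± 0.13, adjusted p = 5.99e-09). Both genes were at low levels in every WT library. The receptor tyrosine kinase gene AXL had 6.51 ± 0.295 CPM in the knockout and 0.201 ± 0.0543 CPM in WT (SD, n = 3 each; log2 fold change 4.98 ± 0.30, edgeR adjusted p = 7.11e-07), and 3.90 with length-corrected counts. MYOF, a ferlin of membrane repair, changed by 2.86 ± 0.15 (edgeR adjusted p = 3.03e-07). The genes that were lower were the nucleotidase gene NT5E (-1.82 ± 0.12), the tissue factor gene F3 (-1.30 ± 0.24) and CCDC80, which encodes a secreted matrix protein (-0.37 ± 0.08).

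Most upstream Hippo genes did not pass the test. Of 22 kinases, adaptors and scaffolds, 6 were higher, 2 were lower and 14 did not pass, where 14.5% of all genes tested were higher and 11.5% lower. Their median log2 fold change was 0.10, against 0.00 over all genes tested. The core kinases STK3 (0.25 ± 0.11), STK4 (0.00 ± 0.10) and LATS1 (0.04 ± 0.12) did not pass, with adjusted p-values from edgeR of 0.130, 0.998 and 0.845. LATS2, a target of YAP as well as its kinase and a member of both lists, had 1.26 ± 0.514 CPM in the knockout and 0.701 ± 0.101 CPM in WT (SD, n = 3 each; log2 fold change 0.84 ± 0.41, edgeR adjusted p = 0.166). WWC3 (0.93 ± 0.12, adjusted p = 0.000152) and WWC1 (0.58 ± 0.11, adjusted p = 0.00272), which encode scaffolds that activate LATS kinases, were higher. WWC1 lies among genes that rose with it: the 20 tested genes nearest to it had a median log2 fold change of 0.68, and 15 of them were called higher. MAP4K5, a kinase that can act on LATS, was higher (0.46 ± 0.11, adjusted p = 0.0114) and the kinase gene TAOK3 was lower (-0.41 ± 0.09, adjusted p = 0.00671). The number called higher was 2 without WT replicate 1, 3 without WT replicate 2 and 3 without knockout replicate 3. The number called lower was 1 without WT replicate 1, 2 or 3 and 0 without knockout replicate 3. MAP4K5 did not pass without WT replicate 1, nor TAOK3 without knockout replicate 3.

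Proteins that bind YAP, TAZ, TEAD or LATS from outside the kinase core were represented by 20 genes. Of the 17 tested, 8 were higher, 0 were lower and 9 did not pass, where 14.5% of all genes tested were higher and 11.5% lower. The median log2 fold change was 0.22; 0 were lower at an unadjusted p under 0.05 from edgeR and with DESeq2 or limma-voom. WTIP, a LIM-domain protein of the Ajuba family that binds LATS, had 27.5, 21.7 and 24.3 CPM in the knockout libraries, against 5.62, 6.65 and 6.24 CPM in the WT libraries (log2 fold change 1.99 ± 0.13, edgeR adjusted p = 1.38e-06). FAT4, an atypical cadherin, had 48.6, 42.9 and 48.8 CPM in the knockout libraries, against 18.9, 18.0 and 14.6 CPM in the WT libraries (1.44 ± 0.11, adjusted p = 6.19e-06). Both were apart by a wide margin. PTPN14, a phosphatase-family protein that holds YAP in the cytoplasm and also stands in the target signature, changed by 0.93 ± 0.09 (edgeR adjusted p = 1.84e-05), and AJUBA by 0.46 ± 0.08 (adjusted p = 0.00117). The number called higher was 5 without WT replicate 1, 4 without WT replicate 3 and 4 without knockout replicate 3. FOXF2 of the target signature and VGLL1, VGLL2 and VGLL3 of this group were not analysed here.

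Paralogs of the targets could be followed for ANKRD2 and ANKRD23 only. ANKRD2 changed by 1.83 ± 0.67 (edgeR adjusted p = 0.0712) at 0.729 ± 0.0326 CPM in the knockout and 0.200 ± 0.183 CPM in WT (SD, n = 3 each), and ANKRD23 by -0.05 ± 0.23 (adjusted p = 0.897). Neither passed, at low levels for both, although limma-voom called 1 higher and edgeR gave 1 higher and 0 lower at an unadjusted p under 0.05. CCN3, CCN4, CCN5 and CCN6 were not analysed here.

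Genes of the actin cytoskeleton and targets of the coactivators MRTF and of serum response factor were set beside these, because MRTF and YAP respond to actin and share targets that include CCN1, CCN2 and ANKRD1. Of 21 such genes 20 were tested, of which 15 were higher, 0 were lower and 5 did not pass, where 14.5% of all genes tested were higher and 11.5% lower. The median log2 fold change was 0.78; 0 were lower at an unadjusted p under 0.05 from edgeR and with DESeq2 or limma-voom. TAGLN, which encodes the actin-binding protein transgelin, had 205, 253 and 229 CPM in the knockout libraries, against 7.46, 8.42 and 9.20 CPM in the WT libraries (log2 fold change 4.78 ± 0.11, edgeR adjusted p = 2.11e-09). ACTA2, smooth muscle actin, had 50.0, 63.7 and 54.5 CPM in the knockout libraries, against 9.39, 8.88 and 8.44 CPM in the WT libraries (2.65 ± 0.12, adjusted p = 9.36e-08). Both were higher in every knockout library. The tropomyosin gene TPM2 (1.81 ± 0.10, edgeR adjusted p = 5.48e-07) and the calponin gene CNN2 (1.32 ± 0.09, adjusted p = 1.92e-06) were higher too. The regulators themselves did not pass, with log2 fold changes of 0.20 ± 0.08 for SRF, 0.32 ± 0.12 for MRTFA and 0.14 ± 0.08 for MRTFB (edgeR adjusted p of 0.0824, 0.0679 and 0.264). For each of these regulators every knockout library still lay above every WT library, as for 21.7% of all genes tested. The unadjusted p from edgeR was 0.0251 for SRF, 0.0194 for MRTFA and 0.125 for MRTFB. The part of MRTF and of YAP in the higher targets was not tested. MYL9 was not analysed here.

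**Figure D5:**
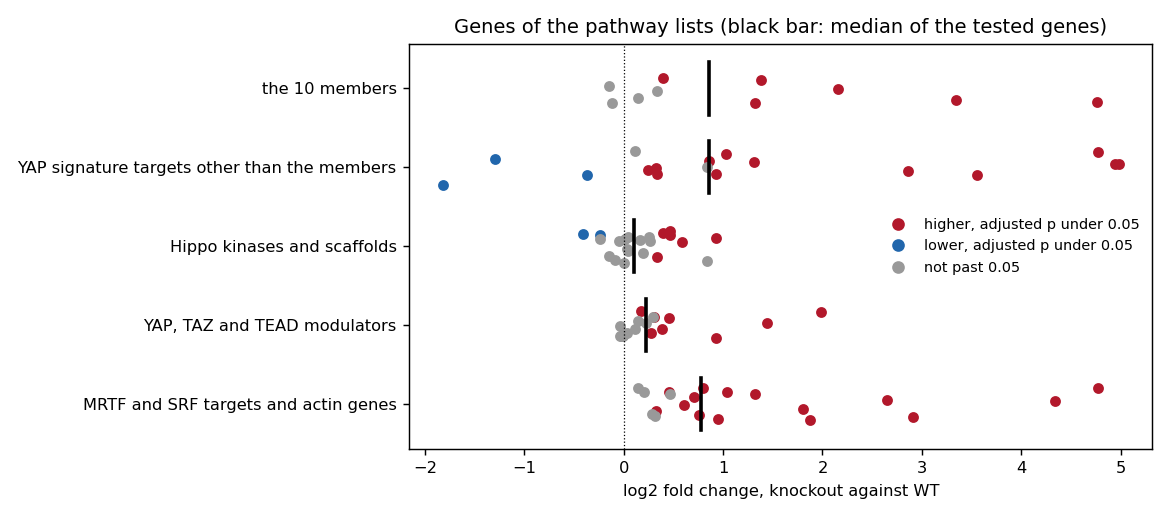
Log2 fold change in DNAJC12 knockout against WT for the 10 genes and for 4 lists of related genes, 1 point per tested gene, in red where higher, in blue where lower and in grey where not past an adjusted p of 0.05. Black bars are medians, which are 0.86, 0.86, 0.10, 0.22 and 0.78 from top to bottom; PTPN14 and LATS2 each stand in 2 lists.

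Markers of cell states and of other cells were measured beside these changes. For scale, 14.5% of all genes tested were higher in the knockout and 11.5% lower. Sympathetic neuroblastoma markers summed to 3858 to 3959 CPM in the knockout libraries, against 4590 to 4839 CPM in the WT libraries; of 11 tested, 3 were higher, 6 were lower and 2 did not pass. All 11 were present in both genotypes, among them HAND2 with 863 ± 87.3 CPM in the knockout and 1057 ± 52.9 CPM in WT and GATA3 with 193 ± 6.52 CPM in the knockout and 244 ± 6.17 CPM in WT (SD, n = 3 each). Mesenchymal neuroblastoma markers summed to 3791 to 3954 CPM in the knockout libraries, against 2458 to 2683 CPM in the WT libraries; of 7 tested, 5 were higher, 1 was lower and 1 did not pass. The mesenchymal sum thus moved with YAP1 and its targets, most of it from VIM, and its part in these results was not tested. In bulk RNA, more cells of a kind and more RNA per cell cannot be told apart.

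Markers named for other cell types did not move in 1 direction. Fibroblast markers summed to 370 to 398 CPM in the knockout libraries, against 458 to 496 CPM in the WT libraries. Of 7 tested, 2 were higher, 2 were lower and 3 did not pass, where 14.5% of all genes tested were higher and 11.5% lower. DCN fell from 159 CPM in WT to 20.7 CPM in the knockout and LUM from 97.4 to 43.2 CPM. PDGFRA rose from 27.6 to 86.5 CPM and COL1A1 from 51.8 to 101 CPM (means, n = 3 each). Being expressed in WT, these genes cannot show whether foreign cells were present. Schwann cell markers summed to 7.37 to 8.35 CPM in the knockout libraries, against 7.72 to 9.68 CPM in the WT libraries. Of 4 tested, 0 were higher and 1 was lower, near the 26.0% of all genes tested that passed in either direction. Of the endothelial and blood cell markers, VWF, TEK and PTPRC were under 1 CPM in every library. TH, PRRX1, SOX10, PECAM1, CDH5 and CD3E were not analysed here.

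The genes most like YAP1, CCN1 and CCN2 across the 6 libraries were found among genes of at least 4 CPM by the same root mean square difference, with a prior count of 2. For YAP1 they were the fibrillar collagen gene COL3A1 (0.0539), the microtubule-associated protein gene MAP1B (0.0569) and UGP2, which encodes an enzyme of UDP-glucose synthesis (0.0578). COL3A1 had 1642 ± 29.4 CPM in the knockout and 641 ± 20.4 CPM in WT (SD, n = 3 each). For CCN1 they were FILIP1L (0.165), the EGF receptor ligand gene HBEGF (0.185) and INHBA, a subunit of activin (0.200). HBEGF had 58.3, 83.1 and 76.0 CPM in the knockout libraries, against 8.18, 15.7 and 26.2 CPM in the WT libraries, and shared with CCN1 the highest WT value in replicate 3. For CCN2 they were EVA1A (0.172), GPRC5A (0.192) and the serine protease gene PRSS23 (0.194). PRSS23 had 116 ± 12.8 CPM in the knockout and 15.0 ± 5.13 CPM in WT (SD, n = 3 each). The measure takes in the difference between genotypes, so that genes with a change of similar size come out as near. The prior count shrinks the difference of a gene with few counts such as CCN2, whose log2 fold change was 3.34. Its nearest genes changed by 2.53 (EVA1A), 3.01 (GPRC5A) and 2.96 (PRSS23), so which genes come out near CCN2 depends on that prior.

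Overlapping genes on the opposite strand were present in the table for WWTR1 and TEAD2, and reads of such genes cannot be told apart if counting ignored strand, which the sources do not state. WWTR1-AS1, antisense to WWTR1, had 0 to 5 counts in the knockout libraries and 2 to 13 in the WT libraries. CD37 and DKKL1, opposite TEAD2, had 1 to 20 counts in the knockout libraries and 3 to 25 in the WT libraries, against 4888 to 5417 for TEAD2 in the knockout libraries and 5384 to 5986 in the WT libraries.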

How the data were processed

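RNA from 6 SH-SY5Y samples was sequenced after removal of ribosomal RNA, as stranded libraries made with random primers, per the labels' protocols. Tools named in the submitters' processing notes, without roles, are Salmon 1.10.0, DESeq2 1.42.1, cutadapt 3.5 and FastQC, and the build is GRCh38.p14; no source used here gives the annotation release or strand setting. The deposited gene table holds counts per gene, which from their values are the authors' rounded estimates and were not normalized. For each library the authors deposited a transcript table of 251955 transcripts, with an estimated count and a TPM for each, per the file headers.

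Repeated rows (403) were removed from the gene table, leaving 20668 genes. Genes kept by filterByExpr (16403) were scaled by TMM and compared with edgeR 4.0.16 (R 4.3.3), by the two-sided quasi-likelihood test with genotype as the term. P-values were adjusted by Benjamini-Hochberg over all genes tested, with a threshold of 0.05, and SE was derived from the log2 fold change and the F statistic. TPM were summed over transcripts of GENCODE release 29, which held 94.2% to 94.6% of the reads of a library. Positions and promoters are from RefSeq. Replicates of a genotype differed beyond counting noise (chi-square per gene 4.24 to 22.6), so none were merged. Count-ratio intervals cover counting error alone; without molecular identifiers, reads may be copies of the same molecule.

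The 10 genes, the lists and the tests were chosen with earlier results of these data known. Named genes were DNAJC12, the 10 genes, the 4 tested genes with the smallest adjusted p in each of 5 pathway lists, and the 3 genes nearest in profile to YAP1, CCN1 and CCN2; STK3, STK4, LATS1, LATS2, SRF, MRTFA, MRTFB, the lower signature genes and single markers are named in addition, chosen after their values were seen. Alternatives were DESeq2 1.42.0, limma-voom (limma 3.58.1), other scalings and filters, a replicate block, each library left out, counts from the transcript files with or without length correction, and a threshold of 0.01. The fit was tested on simulated data. Some marker genes are counted in the tallies and not reported singly here.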

Additional observations from a re-analysis of the deposited data

How the results depend on the processing

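Over 16 settings, single genes gave 593 values on the same side of the threshold and in the same direction as reported, 11 that no longer passed, 2 that newly passed and 1 that turned its sign: ANKRD23, whose change ranged from -0.12 without WT replicate 3 to 0.058 without WT replicate 2 (edgeR adjusted p of 0.791 and 0.914). Leaving out 1 library at a time, genes called lower ranged from 1208 to 2150 and genes called higher from 1758 to 2622; the 10 genes gave 5 to 6 higher and 0 to 1 lower; Hippo genes 2 to 8 higher and 0 to 2 lower; and the binding partners 4 to 8 higher. With length-corrected transcript counts 1226 genes were lower, 2 Hippo genes higher and 0 lower, and 5 binding partners higher. A threshold of 0.01 left 1062 genes lower, 2 Hippo genes higher and 1 lower, and 4 binding partners higher. Exactly 1 Hippo gene was lower with DESeq2, without a filter on low counts, with a filter of at least 1 CPM in 3 libraries and with counts summed from the transcript files. Library size alone, which moved the median of all genes by -0.06, left 5 binding partners higher, and limma-voom called 1 paralog higher. WWC1 (adjusted p = 0.0518) and AJUBA (adjusted p = 0.161) did not pass with length-corrected counts. Over the 1 transcript per gene with the highest mean TPM over all 6 libraries, shares in the knockout and WT were 16.3% and 14.8% for YAP1 (YAP1-201, which is not the highest form in the knockout), 15.2% and 11.7% for TEAD1, 64.7% and 70.7% for TEAD2, 9.45% and 9.65% for TEAD3 and 10.6% and 7.96% for TEAD4. The causes of these shifts were not tested, except that a stricter threshold leaves fewer calls by construction. The replicate numbers did not pair the libraries (correlations of deviations of 0.0591, -0.0297 and -0.0652 for equal numbers); a fit with the replicate block gave 2541 genes higher, 2024 lower and 6 of the 10 genes higher. CCN2 in WT, at 1 to 4 counts a library, is the value most limited by depth.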

Other observations

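Some genes of the same lists outside the rule for named genes, chosen after their values were seen, also differed between the genotypes. In the YAP target signature, CRIM1, which encodes a transmembrane protein that binds bone morphogenetic proteins, had 40.8 ± 9.41 CPM in the knockout and 3.48 ± 1.33 CPM in WT (SD, n = 3 each; log2 fold change 3.56 ± 0.25, edgeR adjusted p = 2.06e-06). FJX1 changed by 1.31 ± 0.13 (edgeR adjusted p = 2.75e-05) and GADD45A, a stress response gene, by 0.86 ± 0.14 (adjusted p = 0.000917). Of the actin genes, the smooth muscle form ACTG2 changed by 4.34 ± 0.39 (edgeR adjusted p = 1.38e-05), and the cytoplasmic forms ACTB by 0.46 ± 0.09 (adjusted p = 0.00330) and ACTG1 by 0.80 ± 0.10 (adjusted p = 0.000172). LMOD1, which encodes the actin nucleator leiomodin, changed by 2.91 ± 0.27 (edgeR adjusted p = 2.09e-05), and the smooth muscle calponin gene CNN1 had a log2 fold change of 0.46 ± 0.29 that did not pass (adjusted p = 0.281). Differences between these genes were not tested. Summed over the list, actin and serum response factor genes had 11956 to 12405 CPM in the knockout libraries and 6929 to 8889 CPM in the WT libraries, with the highest WT value in replicate 3, the WT library that was also highest for CCN1, AMOTL2 and ANKRD1.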
